A study of Mus musculus with 10 samples.

Results

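The urea cycle genes are the 6 genes whose enzymes turn ammonia into urea in hepatocytes: Nags, Cps1, Otc, Ass1, Asl and Arg1. They were found by gene symbol among the rows of the deposited table, and where a gene had more than 1 row the brightest one stood for it. The 6 genes had 7 rows, 1 each except Nags with 2, and all 6 were among the 13942 genes tested. Transcript levels came from 10 Affymetrix Mouse Gene 2.1 ST arrays of liver RNA from female BALB/cByJ mice, 3 months of age. Pml encodes the scaffold protein of PML nuclear bodies. Mice fed ad libitum gave 2 arrays of Pml wild type and 2 of Pml knockout liver, and mice whose food had been taken away 6 h earlier gave 3 of each genotype. The labels used here do not say how the Pml allele was made, at what clock time livers were taken or whether each array is a separate animal. The p-values therefore set group differences only against the spread of these samples within groups, and that spread may be technical.

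Ammonia released from amino acids enters the cycle in the mitochondria of periportal hepatocytes. Nags makes N-acetylglutamate, the obligate activator of Cps1, and Cps1 condenses ammonia and bicarbonate into carbamoyl phosphate. Otc joins carbamoyl phosphate to ornithine, and the citrulline formed leaves for the cytosol. There Ass1 adds aspartate to citrulline, Asl splits the product into arginine and fumarate, and Arg1 cleaves arginine into urea and ornithine. The cycle is known to respond to protein intake, glucagon, glucocorticoids and insulin, largely through the amounts of its enzymes. In the mouse genome Nags lies on chromosome 11, Cps1 on 1, Otc on X, Ass1 on 2, Asl on 5 and Arg1 on 10.

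Of the 6 genes, 3 had a promoter window in the RefSeq-derived table of build GRCm38.p6: Nags, Otc and Ass1. The 250 bases before the annotated start are shown for Ass1 and Nags, the genes called lower after fasting in wild type. Capitals mark matches, on either strand, to any of 9 short motifs. The Ass1 window is chr2:31470020-31470269 and the Nags window chr11:102145263-102145512, both on the plus strand.
Ass1: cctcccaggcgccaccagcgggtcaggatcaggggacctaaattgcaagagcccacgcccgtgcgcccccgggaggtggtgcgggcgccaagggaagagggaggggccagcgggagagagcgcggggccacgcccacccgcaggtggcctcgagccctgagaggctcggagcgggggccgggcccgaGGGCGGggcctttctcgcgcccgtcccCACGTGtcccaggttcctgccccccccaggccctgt
Nags: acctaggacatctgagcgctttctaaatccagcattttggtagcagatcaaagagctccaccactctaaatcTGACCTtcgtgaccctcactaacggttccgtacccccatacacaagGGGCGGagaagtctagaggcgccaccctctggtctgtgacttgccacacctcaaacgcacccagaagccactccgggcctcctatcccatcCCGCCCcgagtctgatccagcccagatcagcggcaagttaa
The Ass1 window held 75.6% G and C, more than 96.4% of the 32851 windows in that table, and the Nags window held 55.6%, against a median of 52.4%. Ass1 had 1 match to the E-box CACGTG, which starts 36 bases before the gene and occurs in 6.02% of all windows. It also had 1 match to the Sp1 motif GGGCGG (32.7% of windows). Nags had 2 matches to GGGCGG and 1 to the nuclear receptor motif AGGTCA (14% of windows). Neither window held the cyclic AMP response element TGACGTCA (1.55%), the C/EBP motif TTGCNNAA (9.56%), the FOXO motif TGTTTAC (3.17%), the full palindrome of the glucocorticoid receptor (0.00913%), the CCAAT box CCAAT (33.8%) or the TATA box TATAAA (12.4%). The matches do not overlap one another. A match is a string of letters and no evidence of binding, and the array data do not bear on these sites.

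Levels are log2 of the deposited normalized intensity, and differences are log2 differences with the standard error (SE) and adjusted p of a limma fit over all 13942 genes. The word called means an adjusted p under 0.05. Array medians lay between 43.5 and 47.5 intensity units. The 13 measured genes of a 14-gene hepatocyte marker list lay above the array median on all 10 arrays. Pml itself lay between 7.50 and 8.37 on wild type arrays and between 6.05 and 6.91 on knockout arrays. Some clock genes differed between fed and fasted wild type. Dbp read 9.50 and 9.58 in fed wild type and 6.07, 6.58 and 6.64 after fasting (log2 difference -3.11, adjusted p = 0.0455, limma), and Arntl (BMAL1) read 7.50 and 7.10, then 9.29, 9.04 and 9.16 (1.87, adjusted p = 0.237). Arntl did not pass. Of 16 tested clock genes 3 were called higher and 3 lower there (median 0.05), beside 8.23% of all genes higher and 13.2% lower. Since the labels give no collection time, the part of the clock genes in the fasting differences was not tested. Fasted knockout arrays differed among themselves. Arntl read 4.60, 4.53 and 8.87 and Dbp 10.05, 9.80 and 6.00 in replicates 1, 2 and 3, so that replicate 3 alone lay near fasted wild type. Results that use fasted knockout were also computed without its replicates 1 and 2; the 1 array left is then assumed to vary like those of the other groups.

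**Figure D1:**
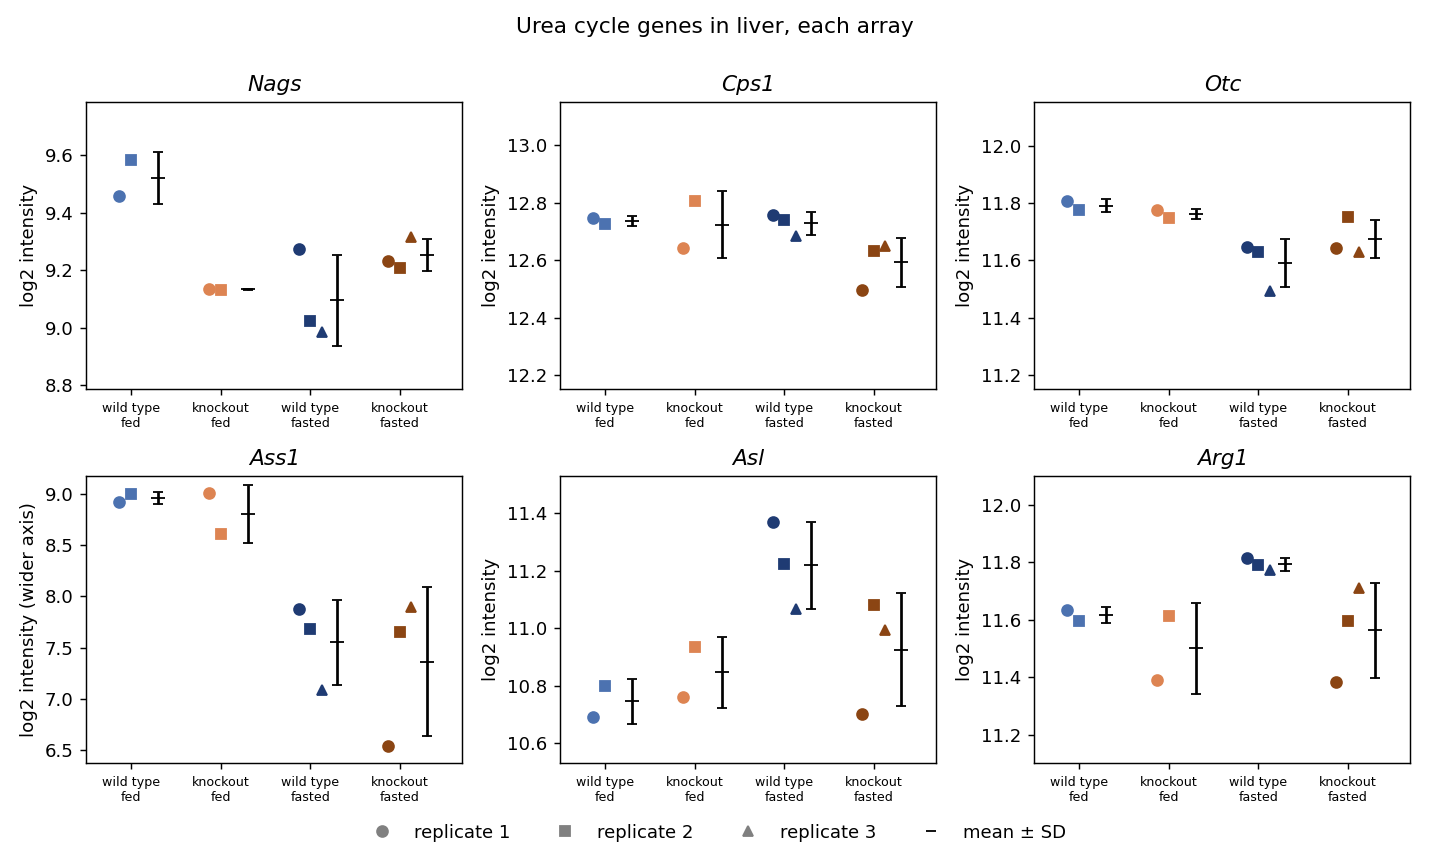
Log2 intensity (vertical axis) of the 6 urea cycle genes on each of 10 arrays, by genotype and feeding; symbols give the replicate number and black bars the mean ± SD (n = 2 fed, 3 fasted). Each axis spans the same range except that of Ass1, which is wider; all 6 fasted arrays of Ass1 lie at or below 7.90 and all 4 fed arrays at or above 8.60.

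Among the urea cycle genes Ass1 moved most. It fell in fasted wild type to 37.7% of its fed level, while the brighter row of Nags fell to 74.4% and Asl rose 1.39-fold. These 3 of 6 genes were called for fasting in wild type, where 21.4% of all genes were called (8.23% higher, 13.2% lower). Cps1, Otc and Arg1 were not called, nor was the dimmer row of Nags, at 0.19 (adjusted p = 0.306, limma). Over the alternatives the count of called genes lay between 0 and 4. In 5 of the 6, all but Cps1, the fasted arrays were separate from the fed ones, as in 52.7% of all genes. The median of the 6 genes was -0.10, beside -0.02 over all genes tested. In wild type the genes of consecutive cytosolic steps had differences of opposite sign, with Ass1 lower and Asl higher. These calls were lost in 5 of 21 alternatives for Ass1 and in 9 of 21 for Asl. In knockout the value of Asl was 0.08 (adjusted p = 0.807, limma).

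Ass1, the argininosuccinate synthase, had log2 intensities of 8.92 and 8.998 in fed wild type and of 7.88, 7.69 and 7.09 in fasted wild type. In knockout it was at 9.002 and 8.60 when fed and at 6.54, 7.65 and 7.90 after fasting. Every fasted array lay below every fed array in both genotypes, and fasted knockout replicate 1 was the lowest of all. Of the rows that stood for the 6 genes that of Ass1 was the dimmest. Its intensity averaged 3.10% of that of the brightest row of an array, beside 6.18% for Nags and 33.6% for Otc. It ranked between 3960 and 13058 among the 41345 rows, and Otc between 224 and 368. How well this single row reads the Ass1 transcript was not tested. The fasting difference in wild type was -1.41 (SE 0.37, adjusted p = 0.0234, limma, n = 2 and 3). That in knockout was -1.44 (SE 0.37) with an adjusted p of 0.0794 in limma, which did not pass. Its 95% interval ran from -2.26 to -0.62. Without fasted knockout replicate 1 the value was -1.03 (adjusted p = 0.0896, limma), and without replicates 1 and 2 it was -0.90 (adjusted p = 0.170). The interaction, which asks whether fasting acted differently in the genotypes, was -0.03 with a wide interval, from -1.20 to 1.13 (adjusted p = 0.981, limma). Genotypes differed by -0.16 when fed (interval -1.06 to 0.75) and by -0.19 after fasting (interval -0.92 to 0.55). Without fasted knockout replicate 1 the latter became 0.22, and without replicates 1 and 2 it was 0.35, with adjusted p of 0.631 and 0.575 in limma, so the small genotype difference has no settled direction.

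Fasting averaged over both genotypes, a contrast chosen after these values were seen, gave -1.42 for Ass1 (SE 0.26, adjusted p = 0.00545, limma), where 21.6% of all genes were called (9.21% higher, 12.4% lower). This call held in 20 of 20 alternatives, with adjusted p between 0.00249 and 0.0252. The averaged contrast did not call the other urea cycle genes. Asl was at 0.28 (adjusted p = 0.0788, limma) and Nags at -0.15 (adjusted p = 0.208). For Otc, Arg1 and Cps1 the adjusted p was 0.170, 0.350 and 0.530 in limma. In wild type alone 3 omissions ended the call of Ass1. The value was -1.45 (adjusted p = 0.10) when fed wild type replicate 1 was omitted, -1.37 (adjusted p = 0.0963) for fed wild type replicate 2 and -1.18 (adjusted p = 0.0708) for fasted wild type replicate 3. Over 21 alternatives in wild type its adjusted p lay between 0.00443 and 0.10. Ass1 also varied within groups, with a pooled SD of 0.50, larger than that of 97.7% of genes.

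Nags, the N-acetylglutamate synthase, read 9.46 and 9.58 in fed wild type and 9.28, 9.02 and 8.99 after fasting. Knockout arrays read 9.14 and 9.13 when fed and 9.23, 9.21 and 9.32 after fasting. Fed wild type stood above the other 3 groups without overlap. In wild type the fall was 0.43 on the log2 scale (log2 difference -0.43, SE 0.11, adjusted p = 0.0265, limma). In knockout the value was 0.12 (SE 0.11, adjusted p = 0.617), and the interaction was 0.55 (SE 0.16, adjusted p = 0.111, limma), so the difference between the genotypes' responses did not pass. Fed knockout against fed wild type was -0.39 (SE 0.13, adjusted p = 0.385, limma).

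The dimmer of the Nags rows went against the brighter one. It read 7.09 and 7.06 in fed wild type and 7.34, 7.14 and 7.31 in fasted wild type. In knockout it read 7.16 and 7.32 when fed and 7.19, 7.24 and 7.48 after fasting. Fed wild type was here the lowest group, again without overlap with the others. With that row in place of the brighter, fasting in wild type gave 0.19 (adjusted p = 0.306, limma), and the mean of both rows gave -0.12 (adjusted p = 0.487). The direction for Nags thus depends on the row. Single omissions ended the call of the brighter row too. It gave -0.49 (adjusted p = 0.0762) and -0.36 (adjusted p = 0.139) when fed wild type replicate 1 or 2 was omitted, and -0.39 (adjusted p = 0.0791) and -0.37 (adjusted p = 0.0822) for fasted wild type replicates 2 and 3. With the 2 groups fitted alone its adjusted p was 0.0629.

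**Figure D2:**
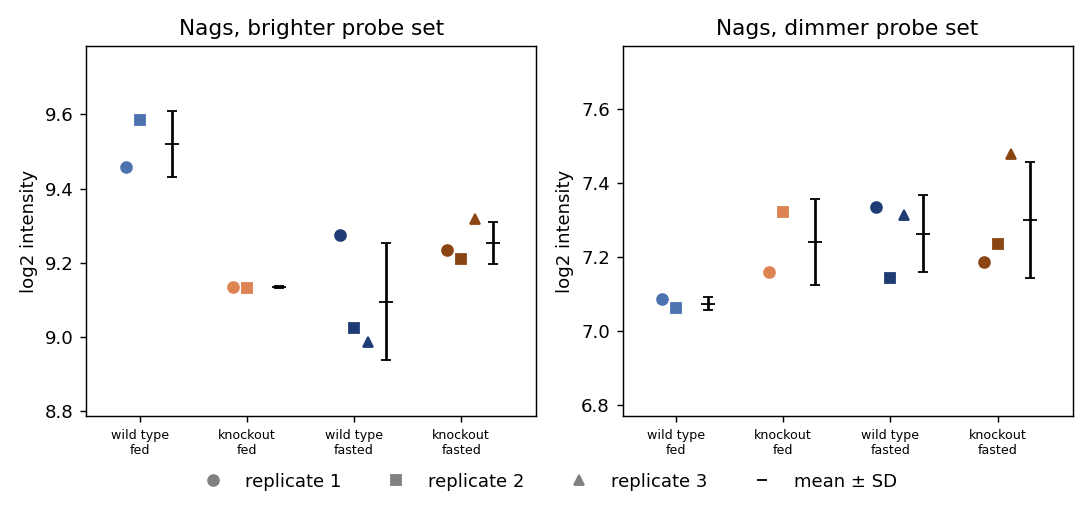
Log2 intensity (vertical axis, same span in both panels) of the 2 rows named Nags on each array, by genotype and feeding, with black bars for the mean ± SD. Fed wild type is the highest group in the brighter row, at 9.46 and 9.58, and the lowest in the dimmer row, at 7.09 and 7.06.

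Cps1, the carbamoyl phosphate synthetase of the mitochondrial matrix, was among the steadiest genes. Wild type arrays lay at 12.75 and 12.73 when fed and at 12.76, 12.74 and 12.68 after fasting. Knockout arrays lay at 12.64 and 12.81, then at 12.49, 12.63 and 12.65. Its whole range over 10 arrays was 0.31 log2 units, and 5.77% of genes had a smaller one, while the median gene spanned 0.68. The fasting difference in wild type was -0.01, with a 95% interval from -0.24 to 0.22 (adjusted p = 0.964, limma). The 3 fasted knockout arrays lay below the 3 fasted wild type arrays, by -0.14 (SE 0.09, adjusted p = 0.359, limma), and such separation without a call was common, since 33.0% of all genes did not overlap between these groups. The intensity of Cps1 averaged 66.9% of that of the brightest row of an array, close to the top of the scale.

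Otc, the mitochondrial enzyme that makes citrulline, had a range of 0.31 log2 units, close to that of Cps1. Its wild type arrays read 11.81 and 11.77 when fed and 11.65, 11.63 and 11.49 after fasting. Knockout arrays read 11.78 and 11.75, then 11.64, 11.75 and 11.63. Fasted wild type lay below fed wild type without overlap, but the difference of -0.20 did not pass (SE 0.10, adjusted p = 0.177, limma). Of the alternatives for that value, trend and robust moderation alone called it (adjusted p = 0.0493; range 0.0493 to 0.433). In knockout the value was -0.09 (interval -0.31 to 0.13).

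Asl, the argininosuccinate lyase, was at 10.69 and 10.80 in fed wild type and at 11.37, 11.22 and 11.07 in fasted wild type. In knockout it was at 10.76 and 10.94 when fed and at 10.70, 11.08 and 10.99 after fasting, so that fed and fasted knockout arrays overlapped. The rise in wild type was 0.47 (SE 0.14, adjusted p = 0.0407, limma), and the value in knockout was 0.08 (interval -0.24 to 0.40). The interaction was -0.40 (SE 0.20, adjusted p = 0.303, limma), which does not show that the genotypes' responses differed. Fasted knockout against fasted wild type gave -0.29 (SE 0.13, adjusted p = 0.162). The wild type call was near the threshold and was lost in 6 of 10 omissions of 1 array. The adjusted p was 0.200 or 0.0934 when fed wild type replicate 1 or 2 was omitted, 0.108 or 0.0892 for fasted wild type replicate 1 or 2, and 0.0527 or 0.0528 for fed knockout replicate 1 or 2, with limma values between 0.40 and 0.53. With each array centred it was 0.43 (adjusted p = 0.0752).

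Arg1, the hepatic arginase, read 11.64 and 11.60 in fed wild type and 11.81, 11.79 and 11.77 after fasting. Knockout arrays read 11.39 and 11.61, then 11.38, 11.60 and 11.71. Fasted wild type was the highest group and overlapped with no other. Its differences did not pass, with 0.18 for fasting in wild type (SE 0.12, adjusted p = 0.333, limma) and -0.23 for knockout against wild type after fasting (SE 0.11, adjusted p = 0.199). Arg1 is also a gene of alternatively activated macrophages. The summed intensity of 15 Kupffer cell and macrophage markers, all measured and none at 0, was between 5654 and 6211 in fasted wild type and between 6564 and 7394 in fasted knockout, opposite in direction to Arg1; their part in its values was not tested. In bulk liver fewer cells of a type and less RNA per cell cannot be told apart.

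**Figure D3:**
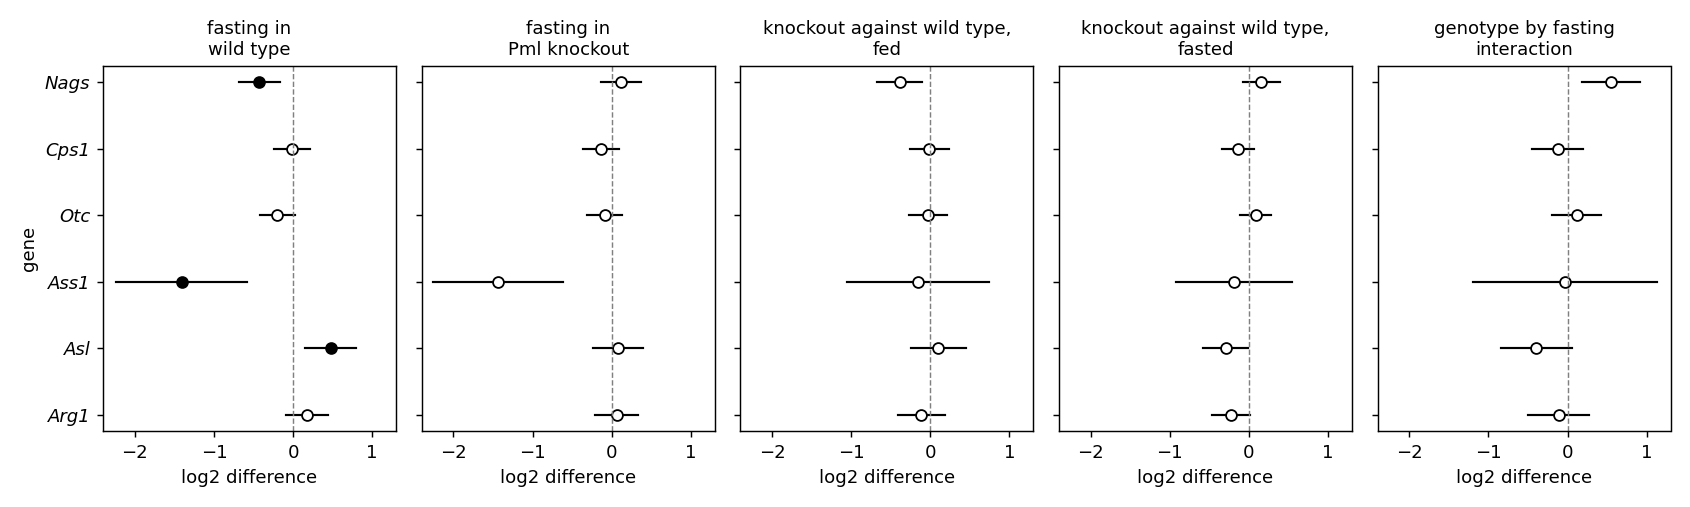
Log2 differences (horizontal axis) of the 6 genes in the 5 comparisons, as points with 95% intervals from limma; filled points passed an adjusted p of 0.05. Filled points are Nags, Ass1 and Asl for fasting in wild type, and the interval of Ass1 is the widest in each panel.

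Outside fasting in wild type, 0 of 6 genes were called by limma in each comparison. For fasting in knockout 1.68% of all genes were called (0.811% higher, 0.868% lower). For knockout against wild type the shares were 0.0861% when fed (0.0574% higher, 0.0287% lower) and 11.1% after fasting (6.68% higher, 4.43% lower), and for the interaction 2.11% (1.32% above 0, 0.789% below). Groups did not overlap for 2 of 6 genes in fasting of knockout (Ass1 and Nags; 36.8% of all genes), 1 of 6 between fed genotypes (Nags; 39.9%) and 2 of 6 between fasted genotypes (Cps1 and Arg1; 33.0%). At an unadjusted p under 0.05 in limma there was 1 of 6 urea cycle genes in each of these 4 comparisons. Of all 13942 genes 2680 were under it for fasting in knockout and 1203 for the fed genotype difference. For the fasted genotype difference there were 3988 and for the interaction 2798, so 1 of 6 is no more than a description. The genes were Ass1 for fasting in knockout, Nags for the fed genotype difference, Asl for the fasted one and Nags for the interaction. The fasting comparisons share no arrays with each other, and each genotype comparison shares arrays with both. Averaged over feeding, the genotype difference called 0 of 6 urea cycle genes by limma (0.172% of all genes; 0.0789% higher, 0.0932% lower), and its largest value was -0.17 for Arg1 (adjusted p = 0.339) and for Ass1 (-0.17, adjusted p = 0.785).

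The genes did not vary as one block over the arrays. Pearson correlations between pairs of the 6 ran from -0.51 (Otc and Asl) to 0.79 (Asl and Arg1) over 10 arrays, which share the 4 groups and are given as a description. The genes most like Ass1 were Glud1 (r = 0.96), Sec63 (0.96) and Uggt1 (0.94). Glud1, the glutamate dehydrogenase that releases ammonia from glutamate, read 11.63 and 11.57 in fed and 11.36, 11.33 and 11.32 in fasted wild type. In knockout it read 11.55 and 11.56 when fed and 11.18, 11.32 and 11.40 after fasting, lowest in the same array as Ass1. Its fasting difference in wild type was -0.26 (SE 0.10, adjusted p = 0.0906, limma), far smaller than that of Ass1. Closest to Asl was Aass (0.97), which starts lysine degradation, followed by Crcp and Gpat4 (both 0.96). Cps1 was most like Acmsd (0.96), an enzyme of tryptophan degradation, Hspa9 (0.94) and Nipal1 (0.93). Otc was most like Rgn and Tmlhe (both 0.96) and Erap1 (0.94), Arg1 like Fem1a and Cactin (both 0.96) and Hnrnpu (0.95), and Nags like Zfp157 (0.95), G2e3 and Fbxw4 (both 0.92).

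The genes that feed the cycle or draw on it were examined by 5 lists, of which 92 of 113 genes were tested. The counts below for fasting in wild type stand against 8.23% of all genes called higher and 13.2% called lower. There, 2 of 11 carriers and transporters rose and 0 fell (median 0.05), 2 of 11 called beside 21.4% of all genes. These were Slc25a22, a mitochondrial glutamate carrier (1.05, SE 0.25), and Slc38a2, an amino acid transporter (0.69, SE 0.16). Values of the ornithine carrier Slc25a15 (0.05), the aspartate-glutamate carrier Slc25a13 (-0.20) and the cationic amino acid transporter Slc7a2 (0.23) did not pass. Of 13 genes of ammonia, glutamate and aspartate supply 1 fell and 0 rose (median -0.10). It was Sirt5 (-0.67, SE 0.16), a mitochondrial deacylase known to act on Cps1. Glul, the pericentral glutamine synthetase, was at 0.22 (adjusted p = 0.210, limma).

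Of 31 tested genes of amino acid catabolism 10 fell and 2 rose in fasted wild type (median -0.27), where 13.2% of all genes fell and 8.23% rose. The proline oxidase gene Prodh (-0.59), the glycine cleavage gene Amt (-0.66), Ivd of leucine breakdown (-0.45), Prodh2 (-0.43) and Haao (-0.43) fell, and Aass rose (0.80). Among 12 genes of other uses of arginine and ornithine 3 fell and 1 rose (median -0.24). Arg2, the mitochondrial arginase, rose at least 2.42-fold, the mean of fasted wild type set against the array median, since both fed arrays lay below it (adjusted p = 0.000997, limma). Gatm, which starts creatine synthesis from arginine (-0.72, SE 0.10), Ddah1, which degrades methylarginines (-0.73, SE 0.17), and Odc1, the ornithine decarboxylase (-0.57, SE 0.15), fell. Arg2 read 4.80 and 4.54 in fed wild type and 7.09, 6.51 and 6.70 after fasting. Knockout arrays read 4.07 and 4.97, then 5.63, 5.95 and 6.02, so that fasted arrays lay above fed ones in both genotypes.

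Of 25 regulators 7 rose and 2 fell in fasted wild type (median 0.13), beside 8.23% of all genes higher and 13.2% lower. Cebpb, a transcription factor of the fasting and acute phase response, rose 1.91 (SE 0.20), and Foxo1, the insulin-restrained transcription factor, 1.13 (SE 0.13). Fkbp5, counted in this list as a glucocorticoid target and not as a transcription factor, rose 2.59 (SE 0.23). A response to glucocorticoids was not tested. Cebpa, long known as an activator of urea cycle genes, fell by 0.53 on the log2 scale (log2 difference -0.53, SE 0.13). The values of the glucagon receptor Gcgr (-0.31, adjusted p = 0.0542), Hnf4a (0.37, adjusted p = 0.0848), the glucocorticoid receptor Nr3c1 (-0.32, adjusted p = 0.121) and Ppargc1a (0.13, adjusted p = 0.757) did not pass in limma. Of the 19 named calls of these lists 7 held without any 1 array, among them Arg2, Cebpb, Foxo1, Fkbp5 and Gatm. The other 12 were lost in 1 to 4 of 10 omissions, of fed wild type replicate 1 or 2 or fasted wild type replicate 2 or 3, with adjusted p up to 0.191.

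**Figure D4:**
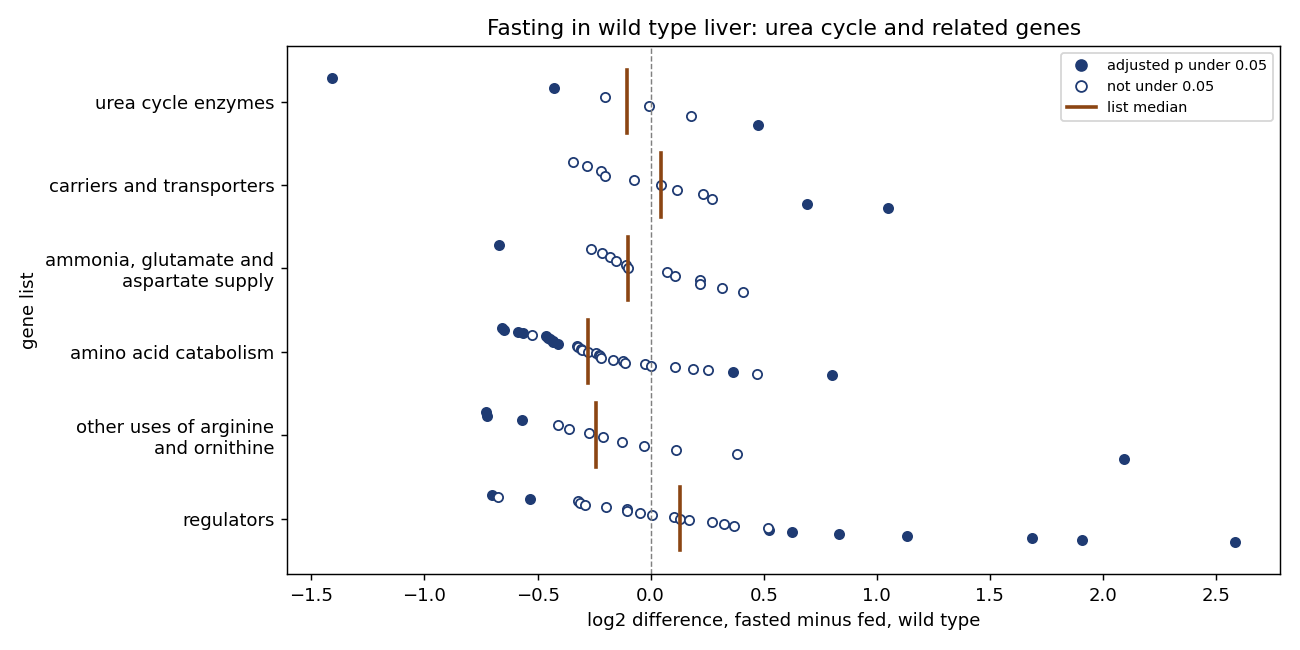
Log2 difference between fasted and fed wild type (horizontal axis) for each tested gene of 6 lists (vertical axis); filled points passed an adjusted p of 0.05 and vertical bars are list medians. The urea cycle enzymes spread from -1.41 (Ass1) to 0.47 (Asl), and the point farthest to the right is Fkbp5 at 2.59.

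In knockout the fast changed 2 of the 92 genes, Arg2 (at least 1.28-fold, adjusted p = 0.0440, limma) and the regulator Onecut1 (1.49, SE 0.21, adjusted p = 0.0278), both higher, where 1.68% of all genes were called. The call of Arg2 was lost in 9 of 10 omissions, all but that of fasted wild type replicate 1 (adjusted p up to 0.155, limma). That of Onecut1 was lost without either fed knockout array or fasted knockout replicate 2 or 3 (up to 0.0736). Without fasted knockout replicates 1 and 2 neither passed (adjusted p = 0.0860 for Arg2 and 0.0753 for Onecut1, limma), and of the 5 lists 1 regulator was then called lower and 0 genes higher. When fed, 0 genes of the 5 lists differed by limma between knockout and wild type, with 0.0861% of all genes called. After fasting 13 of the 92 differed, where 11.1% of all genes were called. Gatm (0.45, SE 0.09), Ddah1 (0.80, SE 0.15), Oaz1 (0.58), Agmat (0.47), Prodh (0.44) and Slc25a12 (0.47) were higher in fasted knockout. Foxo1 (-0.60), Fkbp5 (-0.91), Arg2 (-0.90), Creb1 (-0.44), Aass (-0.66), Gldc (-0.82) and Tdo2 (-0.34) were lower. None of the 13 calls held in every omission of 1 array (adjusted p up to 0.147, limma); most were lost on leaving out fasted knockout replicate 1 or a fasted wild type array. Without fasted knockout replicates 1 and 2, 0 of the 13 held and 0 genes of the table were called by limma, with 1 fasted knockout array left. The 13 values kept their sign there, but some shrank, Gldc from -0.82 to -0.21, Aass from -0.66 to -0.42 and Tdo2 from -0.34 to -0.23 (adjusted p = 0.484, 0.266 and 0.351). Others moved less, to 0.40 for Gatm, 0.87 for Ddah1 and -0.54 for Foxo1 (adjusted p = 0.163, 0.117 and 0.118).

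The interaction was called for 4 of the 92 genes, Foxo1 (-1.25), Cebpb (-1.45), Fkbp5 (-1.64) and Dao (1.10), with 2.11% of all genes called. Dao was dim in every group. Its mean was 5.48 for fed wild type, 4.92 for fasted wild type, 4.87 for fed knockout and 5.41 for fasted knockout. Among fed arrays the mean log2 array median was 5.49 for wild type and 5.51 for knockout. The filter line is the array median, so the value 1.10 rests on levels near or below it. No bound was computed for Dao. Foxo1 read 9.29 and 9.11 in fed wild type and 9.88 and 9.83 in fed knockout, while after fasting wild type arrays read 10.25, 10.33 and 10.42 and knockout arrays 9.51, 9.91 and 9.79. Fed knockout arrays lay above fed wild type arrays and fasted ones below, without overlap. The 4 interaction calls were lost in 5 of 10 omissions for Foxo1, 10 for Cebpb, 9 for Fkbp5 and 7 of the 8 that gave a value for Dao, with adjusted p up to 0.126 in limma. They were also lost without fasted knockout replicates 1 and 2 (adjusted p = 0.0635 for Foxo1, 0.106 for Cebpb and 0.127 for Fkbp5, limma); Dao was not tested there.

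Zonation markers were read beside the cycle genes, which are known to be strongest in periportal hepatocytes. The summed intensity of 14 periportal markers was 31151 to 34909 in fed and 29539 to 31405 in fasted wild type, and 34690 to 35601 in fed and 32013 to 33071 in fasted knockout. The 19 measured pericentral markers summed to 35163 to 36560 in fed and 32936 to 35064 in fasted wild type, and to 34737 to 38289 in fed and 36088 to 37610 in fasted knockout. In wild type 4 of 14 periportal markers fell and 1 rose with fasting, and 3 of 18 tested pericentral markers fell, where 13.2% of all genes fell and 8.23% rose. Between fed and fasted wild type the periportal sums overlapped and the pericentral sums did not. Sums of some other lists did not overlap there either, and for single genes 52.7% did not. The 13 measured hepatocyte markers summed to 65373 to 67655 when fed and 69383 to 70054 after fasting. The 8 intestinal epithelium markers summed to 4093 to 4258 when fed and 6445 to 7319 after fasting, and in knockout to 4296 to 5105 and 5570 to 6370. Their members Vil1, Cdx2 and Muc2 were above the array median on 0 arrays, Cdx1 and Sis on 8, and Fabp2, Lgals4 and Apoa4 on 10. In wild type 2 of the 5 tested members were called higher with fasting and 0 lower. Apoa4, which liver also expresses, was among those called and rose by 0.80 on the log2 scale (adjusted p = 0.00328, limma). The 6 measured cholangiocyte markers summed to 314 to 340 when fed and 348 to 395 after fasting, and the 4 measured pancreas markers to 170 to 181 and 109 to 145. The part of these lists in the values of the urea cycle genes was not tested.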

How the data were processed

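Values deposited by the authors are normalized intensities on a linear scale, 1 for each probe set of an array. RMA and Affymetrix Expression Console are named per the submitters' processing notes; the sources used here give no version, library file or build. Group names follow the sample titles; the labels carry the note on food removal for all 10 samples. Log2 was taken of each of 41345 rows on 10 arrays, with no further normalization. Platform annotation gave 1 gene symbol to 23521 rows. Rows above the array median (50th percentile) on at least 2 arrays were kept, 14617 with 1 symbol, and the brightest by mean log2 stood for each of 13942 genes. Limma 3.58.1 in R 4.3.3 was fitted to 4 group means with empirical Bayes moderation (residual degrees of freedom 6, prior 3.63), with Benjamini-Hochberg adjustment of each contrast's p-values over all genes. The fit was tested on simulated data. No batch is given in the labels. The number of arrays limits the precision.

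The members, the gene lists and the alternatives were chosen with earlier results of these data known. Named genes were the 6 members; from each of 5 related lists up to 6 called genes with the smallest p and 13 fixed genes where tested; and the 3 genes with the highest correlation with each member, leaving out predicted and numbered symbols. Gls2, a fixed name, was not tested. Dixon's test was not applied, since no group has 4 arrays.

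Alternatives were centring, repeated quantile normalization, the filter dropped or raised to the 70th percentile, averaging of a gene's rows, log2(intensity + 16), trend and robust moderation, weights per array, a block on replicate number, the groups of a comparison alone, each array left out, and fasted knockout replicates 1 and 2 left out. The other Nags row and the averaged contrasts were chosen after seeing the data.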

Additional observations from a re-analysis of the deposited data

Results flagged for a closer look

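The brighter row of Nags gave fasting differences of opposite sign in the genotypes. Every fasted wild type array lay below every fed one (-0.43), and every fasted knockout array lay above every fed one (0.12). Fasted and fed arrays did not overlap in 52.7% of all genes in wild type and 36.8% in knockout. The knockout value did not pass (interval -0.14 to 0.38, adjusted p = 0.617, limma). The interaction was 0.55 (SE 0.16), with an adjusted p of 0.111 in limma, so the difference did not pass over all genes; over 21 alternatives the value ran from -0.13, with the other row of Nags, to 0.64.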

How the results depend on the processing

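For fasting in wild type 3 of 6 urea cycle genes were called by limma, and this count was 0 with no filter, 0 with the replicate number as a block and between 0 and 3 when single arrays were left out. Without the filter, which adds genes to the adjustment, adjusted p values were 0.0554 for Ass1, 0.0581 for Nags and 0.0841 for Asl. With the replicate block they were 0.0584, 0.0729 and 0.0643. Of same-numbered arrays of different groups 1 of 13 pairs had a correlation of deviations over 0.1, beside 2 of 24 pairs with different numbers. By this measure 4 of 10 arrays matched best with their own number. The 2 arrays of a fed group deviate by equal and opposite amounts, so the pairs are not independent and the check is weak. The main fit did not take the numbers as pairs, and the check cannot decide whether they are. The other 4 comparisons had 0 calls among the 6 genes under each alternative. Of 629 values of single genes under alternatives, 583 kept direction and side of the threshold, 22 lost a call and 1 gained one. Another 23 changed sign, among them no Ass1 value for fasting in either genotype. Most of the 629 belong to values that were not called and had no call to lose. The 22 losses fell on the 3 calls for fasting in wild type: 8 of 22 alternatives for Nags, 5 of 21 for Ass1 and 9 of 21 for Asl. Repeated quantile normalization turned Cps1 to 0.038 for fasting in wild type and to 0.025 for the fed genotype difference. Without fasted knockout replicates 1 and 2 the fasted genotype difference of Ass1 was 0.35 and its interaction 0.50, and the interaction of Arg1 was 0.032. The interaction of Ass1 was 0.010 with each array centred and 0.040 with array weights. The other Nags row gave 0.19 for fasting in wild type, 0.17 for the fed genotype difference and -0.13 for the interaction. Omission of 1 array moved Cps1 between -0.024 and 0.013 for fasting in wild type and between -0.10 and 0.069 for the fed genotype difference, and, for fasting in knockout, Asl between -0.0089 and 0.19 and Arg1 between -0.048 and 0.17. It moved Ass1 between -0.36 and 0.045 for the fed genotype difference, between -0.46 and 0.22 for the fasted one, and between -0.30 and 0.38 for the interaction. The cause of these changes was not tested. Counts over all genes moved too: from 2990 to between 1328 and 3256 for fasting in wild type, from 234 to between 0 and 504 in knockout, from 12 to between 0 and 24 for the fed and from 1549 to between 0 and 1968 for the fasted genotype difference, and from 294 to between 0 and 520 for the interaction.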
